A study of Rattus norvegicus with 50 samples.

Results

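Lungs of rats that had inhaled nickel subsulfide (Ni3S2) at 0.15 mg/m3 for 4 weeks were compared directly with lungs of rats exposed to the same aerosol for 1 week, with no control in the contrast. The comparison held 10 arrays, 5 at each time, of the 50 arrays in the series, and every probe set with exactly 1 gene symbol in the platform's gene table was tested. That left 19063 of 31042 probe sets and 13438 genes. All animals were male Fischer F344 rats, about 7 to 8 weeks old on receipt. They breathed Ni3S2 at 0.15 mg/m3 (about 0.11 mg of nickel per m3) for 6 hours a day, 5 days a week, which made 5 exposure days by 1 week and 20 by 4 weeks. Rats at 4 weeks were also older when sampled, and age and length of exposure cannot be told apart within this contrast. Unexposed controls (0 mg/m3) and rats at 0.60 mg/m3 (0.44 mg of nickel per m3), each also sampled at 1 and 4 weeks, served to test whether the change over time differed from that at 0.15 mg/m3. Of the 13 rats in a group, 8 went to expression and nickel burden, and arrays were run for the 5 whose RNA was of the highest quality. The arrays are therefore separate animals selected on RNA quality, and p-values measure the spread between them.

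Nickel subsulfide is a poorly soluble compound whose particles are taken up by lung cells and dissolve slowly. Inhaled particles of this kind draw inflammatory cells into the alveoli and stimulate division of epithelial and other lung cells, and the compound causes lung tumours in rats. Repeated exposure can let some early responses subside while others build up, which is what a contrast of 2 exposure times addresses. RNA came from dissected distal airway tissue of the right caudal lobe. Markers of that tissue were high: averaged over the arrays, the surfactant gene Sftpc lay at the 100th percentile of genes, the club cell gene Scgb1a1 at the 100th and the alveolar type 1 gene Ager at the 97.5th. Among markers of cells that the tissue could also hold, the B cell gene Cd79b lay at the 39.2nd percentile, the T cell gene Cd3e at the 50.5th and the heart muscle gene Myh6 at the 89.8th. In such bulk tissue, fewer cells of a type and less RNA per cell cannot be told apart.

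The 2 exposure times separated on the arrays, and single arrays stood apart within the 1-week group. Values are log2 intensities as deposited, and a change is the 4-week mean minus the 1-week mean, so 1 unit is a 2-fold difference. On the first principal component of the 10 arrays, which held 69.5% of the variance, the 4-week arrays lay from 19.8 to 26.1 and the 1-week arrays from -41.1 to -15. Replicate 4 at 1 week was the furthest out, at -41.1, and the next 1-week array lay at -25.5. Replicate 4 was also the lowest 1-week array for 75.4% of the genes that were higher at 4 weeks, against 14.3% of the genes not called. Replicate 1 at 1 week was the lowest 1-week array for 45.1% of the genes that were lower at 4 weeks, against 26.2% of those not called. Among all 50 arrays, the 1-week controls lay apart from every 4-week group on the first component (63.5% of the variance), at -58 ± 12.2 (SD, n = 5), and the 4-week controls lay at 31.3 ± 3.03. The 0.15 mg/m3 arrays lay at 8.56 ± 6.76 at 1 week and 38.1 ± 1.09 at 4 weeks.

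**Figure D1:**
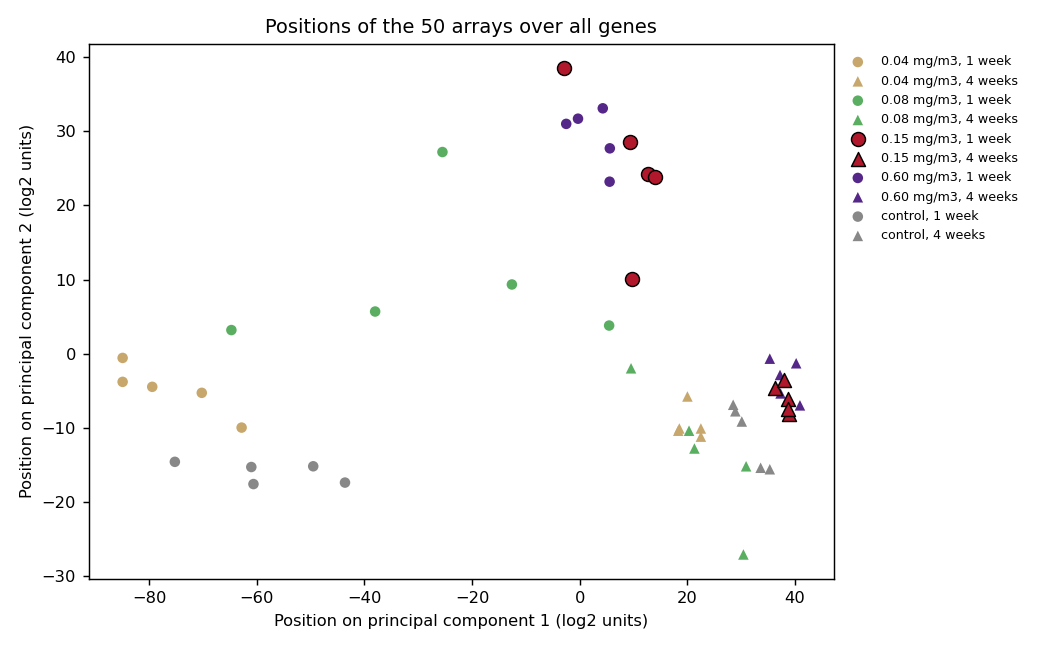
Positions of the 50 arrays on the first and second principal components over 13438 genes, in log2 units; circles are 1-week arrays, triangles 4-week arrays, colours the concentrations, and outlined symbols the 0.15 mg/m3 arrays. The 5 outlined triangles lie together with the 4-week arrays at 0.60 mg/m3, while 1 outlined circle (replicate 4) lies highest on the vertical axis and another (replicate 1) lowest of its group.

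Most of the genes that changed at 0.15 mg/m3 fell between 1 and 4 weeks, but most of the large changes were rises. Of 13438 genes, 6433 (47.9%) were called, 1872 higher (13.9%) and 4561 lower (33.9%), at an adjusted p under 0.05 in limma (Benjamini-Hochberg over all probe sets tested). Changes of at least 2-fold were made by 368 called genes that rose and 39 that fell. The median change over all genes was -0.13, and the changes below are to be read relative to it. Of the genes called lower, 555 fell at least 1.5-fold, and of those called higher, 961 rose as much. Of the 19063 probe sets, 45.2% were called, 14.4% higher and 30.8% lower. With the median deviation of each array set to 0, 39.3% of called genes were higher in place of 29.1%. All 5 arrays of one time lay on one side of the other 5 for 5286 genes (39.3%), 12.9% higher and 26.5% lower at 4 weeks. With replicate 4 at 1 week left out, 5408 genes were called.

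The 15 largest rises among genes whose arrays did not overlap began with 3 zinc finger genes and Foxp2. Zfp729b, a predicted zinc finger transcription factor, read 6.01, 6.04, 6.25, 6.11 and 5.95 in the 4-week arrays and 3.74, 4.18, 4.13, 3.53 and 3.92 in the 1-week arrays. The groups lay far apart at their nearest arrays, and Zfp729b rose 4.51-fold (2.17 ± 0.17, adjusted p = 4.56e-12 in limma). Zfp386 read 8.34, 8.15, 8.36, 8.42 and 8.65 at 4 weeks and 6.63, 6.73, 6.85, 5.30 and 6.07 at 1 week, a rise of 2.07 ± 0.27. Its lowest array was replicate 4 at 1 week, and without that array the rise was 1.81. Foxp2, a forkhead repressor that acts in lung epithelium development, read 7.31, 7.24, 7.21, 7.21 and 7.48 at 4 weeks and 5.47, 5.84, 5.46, 4.52 and 5.18 at 1 week. It rose by 1.99 ± 0.24, and by 1.80 without replicate 4. The chromatin remodeller gene Atrx rose by 1.93 ± 0.29, from 3.41 to 4.88 across the 1-week arrays to 5.65 to 6.57 across the 4-week arrays.

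Further genes among the 15 had replicate 4 as the lowest 1-week array too. Arhgap5, a GTPase-activating protein, rose by 1.91 ± 0.27 from a 1-week mean of 7.13 ± 0.59 (SD) to 9.04 ± 0.17. Osbpl8, a lipid transfer protein of the endoplasmic reticulum, read 9.46, 9.56, 9.72, 9.56 and 9.53 at 4 weeks and 8.05, 8.09, 8.07, 6.99 and 7.52 at 1 week. The 4-week arrays of Osbpl8 lay close together and all above the 1-week arrays, with a rise of 1.82 ± 0.17. Omd, a keratan sulfate proteoglycan of matrix, rose by 1.81 ± 0.24, and Samd9l, an interferon-inducible growth suppressor, by 1.76 ± 0.18. Lilrb4, an inhibitory receptor of myeloid cells, read 7.21, 7.68, 7.64, 6.77 and 7.32 at 4 weeks and 5.18, 5.69, 6.00, 4.95 and 5.30 at 1 week. It rose by 1.90 ± 0.23 and is the only one of the 15 whose rise was also called different from that at 0.60 mg/m3. The others were Zfp347 (2.01), Nexmif (1.91), Zfp638 (1.86), Arid4a (1.85), Lrif1 (1.78) and Naa15 (1.75), a subunit of the main amino-terminal acetyltransferase. In all 15 the lowest 1-week array was replicate 4, and without it all 15 were still called. Genes whose symbol starts as a zinc finger name, grouped after their values had been seen, were not higher as a family: of 231, 73 were higher and 59 lower, with a median of 0.03.

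The 15 largest falls among genes whose arrays did not overlap were smaller than the 15 rises. Among named genes whose arrays overlapped, Glycam1 (-1.74), Pla2g10 (-1.66) and Cd79b (-1.32) had larger falls than any of the 15 and are given with their lists. Cdca3 (-1.20), Uhrf1 (-1.20) and Tk1 (-1.16) overlapped too and fell more than most of the 15. Steap1, a membrane protein of the STEAP family, read 4.88, 5.63, 5.58, 5.71 and 5.16 at 4 weeks and 5.90, 6.77, 6.88, 7.01 and 6.80 at 1 week, and fell by 1.28 ± 0.30 on the log2 scale (adjusted p = 0.000586 in limma). Timp1, an inhibitor of matrix metalloproteinases, read 9.11, 9.16, 9.15, 9.12 and 8.92 at 4 weeks and 9.32, 10.38, 10.80, 10.13 and 10.38 at 1 week. Its 4-week arrays were nearly level, replicate 1 at 1 week lay just above them, and Timp1 fell by 1.11 ± 0.16 on the log2 scale (-1.33 without replicate 1). Krt17, a keratin of basal and injured epithelium, fell by 1.19 ± 0.31, from 6.23 ± 0.33 (SD) to 5.04 ± 0.15. Actg2, an actin of smooth muscle, read 7.74, 8.32, 8.01, 8.27 and 7.83 at 4 weeks and 9.49, 9.03, 8.89, 9.07 and 9.14 at 1 week, a fall of 1.09 ± 0.20. Unlike Timp1, Actg2 was highest in replicate 1 at 1 week. Col1a1, the main chain of type I collagen, read 9.22, 9.24, 8.66, 8.90 and 9.29 at 4 weeks and 10.41, 10.08, 9.99, 9.70 and 9.97 at 1 week, and fell by 0.97 ± 0.19.

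The other 10 of these 15 falls included a replication gene, Cdt1, and a repair gene, Rad54l. Cdt1, which loads the replicative helicase onto DNA, read 6.32, 6.45, 6.58, 6.37 and 6.39 at 4 weeks and 6.91, 7.54, 7.59, 7.45 and 7.50 at 1 week, a fall of 0.98 ± 0.15. Rad54l, a motor protein of recombination repair, fell by 1.01 ± 0.17; its replicate 1 at 1 week (4.64) lay against the highest 4-week array (4.63). The urea cycle gene Ass1 fell by 1.02 ± 0.13 and the glutathione transferase gene Gstm2 by 1.00 ± 0.17, with replicate 2 at 4 weeks (7.38) far below the other 4-week arrays of Gstm2 (8.39 to 8.82). The others were Cd7 (-1.19), a receptor of lymphocytes, Tmem54 (-1.07), the lipid kinase gene Pik3c2b (-1.07), the microfibril gene Mfap2 (-1.05), the tubulin gene Tubb6 (-1.04) and Lsm2 (-1.02), which takes part in splicing and RNA decay. Replicate 1 was the lowest 1-week array for 9 of the 15. For Tubb6, Pik3c2b and Nexmif at least 1 further probe set of the gene was not called.

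**Figure D2:**
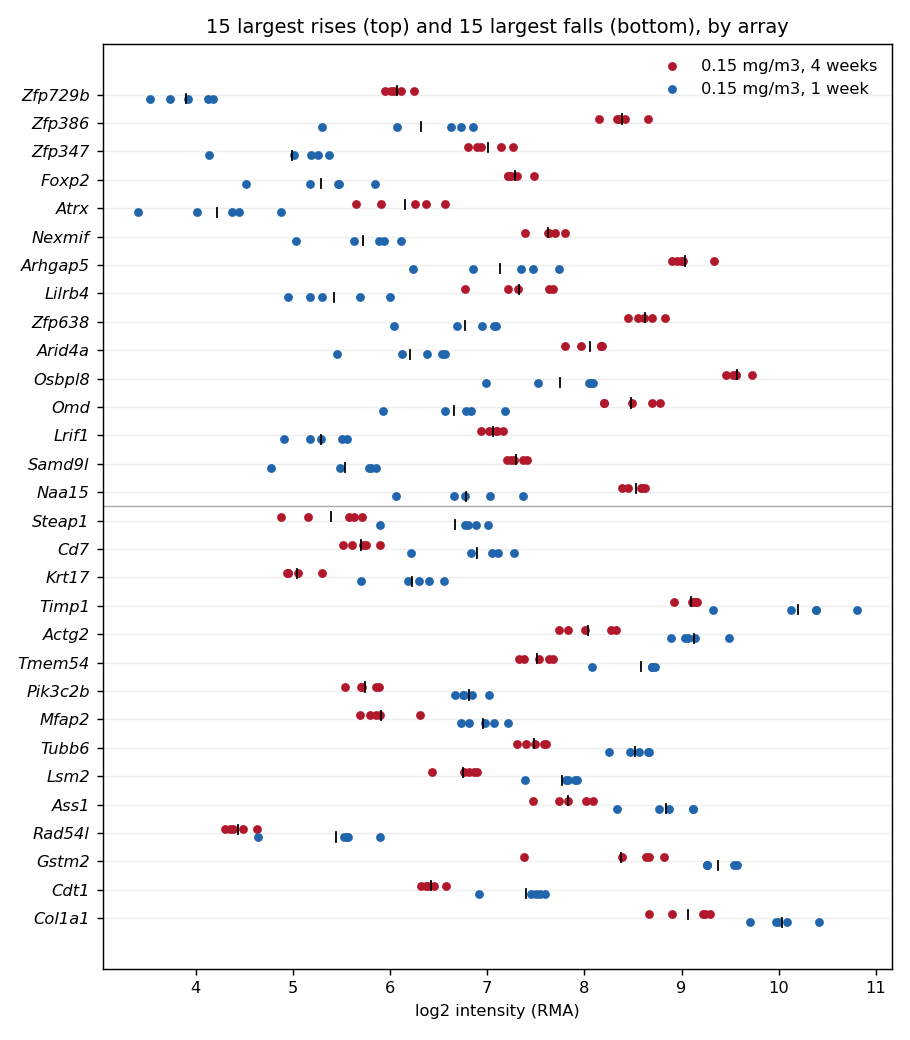
log2 intensity of each array for the 15 genes with the largest rises (above the grey line) and the 15 with the largest falls (below it) at 0.15 mg/m3; red points are the 5 arrays at 4 weeks, blue points the 5 at 1 week, and black ticks the group means. Above the line the leftmost blue point of each gene is replicate 4, and for Rad54l the nearest points of the groups almost touch (4.63 and 4.64).

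The direction of change went with the length of the gene. Genes higher at 4 weeks spanned a median of 48.9 kb of genome, genes lower 15.4 kb and genes not called 23.3 kb, by gene spans from RefSeq GRCr8 for 13419 genes (99.9%). Among genes under 5 kb, 2.87% were higher and 42.5% lower; among genes of 100 kb or more, 25.8% were higher and 16.5% lower. Spearman's rank correlation of change with span, across genes, was 0.28 at 0.15 mg/m3, 0.33 at 0.60 mg/m3 and 0.33 in controls. Genes are not independent replicates, and what links span to these changes was not tested. With the trend on gene span removed from each array, 5688 genes were called, 42.4% of them higher. Many list counts moved with this setting, those of short genes and some of longer ones, and they are given with the lists.

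**Figure D3:**
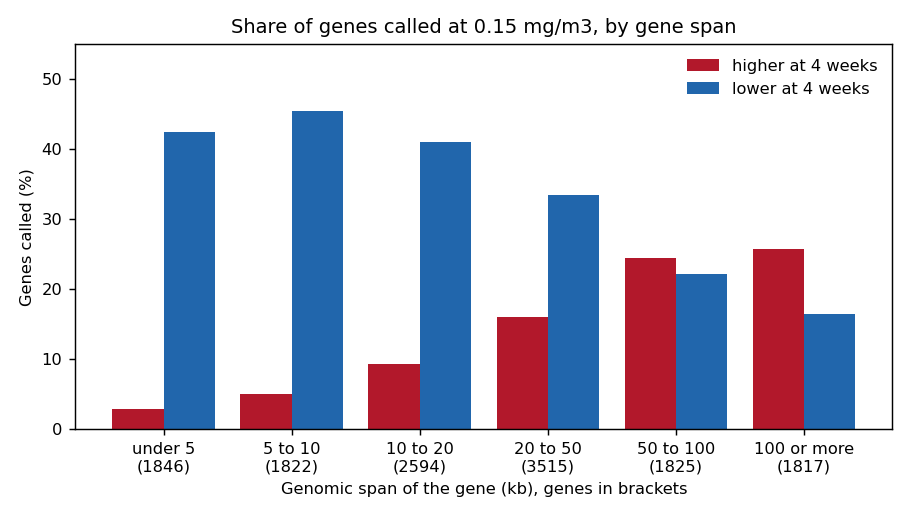
Share of genes called higher (red) and lower (blue) at 4 weeks against 1 week at 0.15 mg/m3, in percent, by the genomic span of the gene in kb, with the number of genes in brackets. The share higher climbs from 2.87% in the shortest class to 25.8% in the longest, and the share lower is 42.5% in the shortest, 45.4% in the next and 16.5% in the longest.

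Cell division genes were mostly lower at 4 weeks than at 1 week. Mitotic genes are switched on together late in the cell cycle, and many carry a CCAAT box, bound by NF-Y, and the cell cycle homology region TTTGAA, bound by the DREAM and MuvB complexes. The upstream windows of the 3 mitotic genes with the largest falls and of Mki67, the mitotic gene with the largest rise, are printed to show these elements. Each window is the 250 bases before the RefSeq gene start in GRCr8, in lower case, with CCAAT and TTTGAA on either strand (ATTGG and TTCAAA) in capitals. They lie at chr4:159320953-159321202 (plus strand), chr20:19265043-19265292 (plus strand), chr5:142483200-142483449 (minus strand) and chr1:199952594-199952843 (minus strand).
Cdca3: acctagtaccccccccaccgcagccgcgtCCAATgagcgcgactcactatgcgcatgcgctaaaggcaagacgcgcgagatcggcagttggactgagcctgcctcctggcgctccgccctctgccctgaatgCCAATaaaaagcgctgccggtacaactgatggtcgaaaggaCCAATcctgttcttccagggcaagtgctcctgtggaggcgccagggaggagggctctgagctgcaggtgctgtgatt
Cdk1: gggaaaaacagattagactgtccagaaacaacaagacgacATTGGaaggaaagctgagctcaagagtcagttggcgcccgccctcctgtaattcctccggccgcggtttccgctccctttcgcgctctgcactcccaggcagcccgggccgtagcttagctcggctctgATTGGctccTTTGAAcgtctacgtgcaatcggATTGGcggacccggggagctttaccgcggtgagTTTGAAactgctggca
Cdca8: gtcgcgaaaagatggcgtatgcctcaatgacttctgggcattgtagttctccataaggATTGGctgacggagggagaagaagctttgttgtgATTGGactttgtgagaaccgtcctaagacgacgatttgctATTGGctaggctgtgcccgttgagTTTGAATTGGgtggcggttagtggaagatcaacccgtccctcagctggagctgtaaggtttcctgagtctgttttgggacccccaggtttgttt
Mki67: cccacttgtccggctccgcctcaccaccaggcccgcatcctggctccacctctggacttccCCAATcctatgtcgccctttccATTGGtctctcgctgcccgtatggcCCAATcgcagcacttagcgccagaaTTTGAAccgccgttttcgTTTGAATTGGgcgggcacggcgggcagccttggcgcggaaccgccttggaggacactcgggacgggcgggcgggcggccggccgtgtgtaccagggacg
CCAAT occurred in 79.4% of the 34 mitotic genes with a window, against 35.1% of 11089 measured genes with one, and TTTGAA in 50% against 10.9%; neighbouring matches can share letters. Mki67 holds both motifs and rose, and Cdca3 holds CCAAT without TTTGAA and fell. Mitotic genes that were not called held the motifs about as often (85.7% and 57.1% of 14) as those lower (75% and 50% of 16), so the shares with each motif were similar in the members lower and not called.

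Of 39 mitotic genes measured, 20 were lower and 4 higher, with a median of -0.38 (all genes 33.9% lower, 13.9% higher and -0.13). Cdk1, the kinase that starts mitosis, read 7.77, 8.17, 8.19, 7.86 and 8.10 at 4 weeks and 7.82, 9.77, 9.57, 9.46 and 9.44 at 1 week. Replicates 2 to 5 at 1 week lay well above all 4-week arrays, and replicate 1 lay among the latter. Cdk1 fell by 1.19 ± 0.20, and the change was -1.54 without replicate 1. Cdca3, which triggers entry into mitosis, read 6.66, 6.89, 6.74, 6.66 and 6.72 at 4 weeks and 6.68, 8.39, 8.26, 8.11 and 8.22 at 1 week, a fall of 1.20 ± 0.18. Cdca8, a subunit of the chromosomal passenger complex, fell by 1.12 ± 0.17, with replicate 1 at 1 week (5.62) again inside the 4-week range (5.40 to 5.78). For all 20 mitotic genes that were lower, replicate 1 was the lowest 1-week array, and for 0 of them did the groups lie apart. Of all genes, 26.5% were lower at 4 weeks with the groups apart. Averaged over the list, the level relative to each gene's mean over the 50 arrays was 0.72 to 1.18 in 4 of the 1-week arrays, -0.15 in replicate 1, and 0.19 to 0.50 at 4 weeks. Without replicate 1, 23 mitotic genes were lower.

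The 4 mitotic genes that rose were Mki67, Bub1, Kif4a and Ttk. Mki67, the proliferation antigen that coats mitotic chromosomes, read 5.97, 6.40, 6.49, 5.87 and 6.48 at 4 weeks and 4.55, 5.68, 5.91, 4.65 and 5.01 at 1 week, a rise of 1.08 ± 0.25. The spindle checkpoint genes Bub1 and Ttk rose by 0.84 and 0.64, and the chromosome motor gene Kif4a by 0.79. Mki67 had 1 probe set on this array, so its direction rests on that probe set alone.

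Most DNA replication genes were lower at 4 weeks. Of 33 G1/S and replication genes, 27 were lower and 2 higher (33.9% and 13.9% over all genes), with a median of -0.56. For 12 of those lower the groups did not overlap, and 26.5% of all genes were lower without overlap. Replicate 1 was the lowest 1-week array for 26 of the 27 that were lower. Averaged over the list as for the mitotic genes, replicate 1 at 1 week (0.04) lay inside the 4-week range (-0.11 to 0.1). The other 1-week arrays lay at 0.57 to 0.77, so the fall of the list was not shared by replicate 1. Without replicate 1, 29 replication genes were lower. Mcm5, a subunit of the replicative helicase, read 6.20, 6.48, 6.50, 6.45 and 6.29 at 4 weeks and 6.59, 7.70, 7.56, 7.36 and 7.49 at 1 week. All its 1-week arrays lay above the 4-week arrays, replicate 1 by the least, and the fall was 0.96 ± 0.17. Uhrf1, which carries DNA methylation through replication, fell by 1.20 ± 0.16, and Tk1, which makes thymidine phosphate, fell by 1.16 ± 0.18. The groups of Uhrf1 and Tk1 overlapped. Pola1 and Ccne2, a polymerase subunit and a cyclin, rose by 0.67 and 0.63. DNA repair genes had 16 of 26 lower and 3 higher (median -0.35), led by Rad54l and the base excision genes Apex1 (-0.68) and Ung (-0.64); Rad18, a ubiquitin ligase for stalled forks, rose by 0.60. Targets of p53 had 6 of 20 lower and 2 higher, near the shares over all genes (33.9% and 13.9%), with Ccng1 at 0.62 and Cdkn1a, an inhibitor of cyclin-dependent kinases, at -0.51.

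Over all genes 13.9% were higher, and the RNA handling and splicing list held a larger share. Of 29 measured, 16 were higher and 0 lower, with a median of 0.41, and 13 were not called. The count higher was 16 with any 1 array left out, and 2 members were lower without replicate 1 at 1 week. Pnisr, a splicing-related protein, read 8.98, 8.70, 8.81, 8.93 and 9.12 at 4 weeks and 7.66, 7.92, 7.75, 6.60 and 7.24 at 1 week, a rise of 1.48 ± 0.20. Rbm39, a splicing coactivator, read 11.04, 10.93, 11.08, 11.16 and 11.25 at 4 weeks and 10.14, 10.13, 10.13, 9.19 and 9.84 at 1 week, a rise of 1.21 ± 0.15. In both genes the groups lay apart and replicate 4 was again the lowest 1-week array. The splicing kinase gene Prpf4b rose by 1.32 ± 0.19 and Luc7l3, a component of the U1 particle, by 1.31 ± 0.17. The probe sets of Pnisr differed in size, from 0.50 to 1.78. Of histone demethylase and DNA methylation genes 5 of 22 were higher and 9 lower, with the demethylase genes Jmjd1c (0.87), Kdm4c (0.75) and Kdm5a (0.68) higher.

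Most oxidative phosphorylation and proteasome genes were lower by small amounts, against 33.9% lower over all genes. Oxidative phosphorylation had 34 of 48 genes lower and 1 higher, with a median of -0.23. Ndufv1, the subunit of complex I that takes up NADH, read 8.90, 9.12, 9.11, 9.12 and 8.99 at 4 weeks and 9.63, 9.57, 9.55, 9.70 and 9.58 at 1 week, a fall of 0.56 ± 0.11. Its groups were apart by more than their own range. The list is made of short genes (median 7.18 kb), and with the span trend removed 11 were lower and 4 higher. Proteasome genes had 20 of 31 lower and 3 higher (median -0.26); Psmb7, a catalytic subunit, fell by 0.57 ± 0.10, while the ATPase gene Psmc6 rose by 0.80 ± 0.12. With the span trend removed the proteasome count was 10 lower and 3 higher. Cytosolic ribosomal proteins had 11 of 26 lower and 1 higher, and 1 lower and 7 higher with that trend removed, so the list has no settled direction.

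Most genes of amino acid and one-carbon metabolism were lower, and other metabolic lists lay nearer the share over all genes (33.9% lower, 13.9% higher). Of 28 genes of amino acid and one-carbon metabolism 20 were lower and 3 higher, with a median of -0.44. Ass1, described above, was joined by the folate enzyme gene Aldh1l2 (-0.86) and the proline synthesis gene Aldh18a1 (-0.65). Tdh, threonine dehydrogenase, rose instead, reading 7.42, 6.79, 7.35, 7.19 and 7.21 at 4 weeks and 5.61, 5.56, 5.04, 5.90 and 5.16 at 1 week. Its groups lay apart, with a rise of 1.73 ± 0.21, and it is 1 of the 31 genes whose change differed from that at 0.60 mg/m3 (0.31 there). Glycolysis genes had 9 of 19 lower and 0 higher, led by Pkm (-0.62) and Gpi (-0.44), with 5 lower without replicate 4 at 1 week and 4 lower with either the median deviation set to 0 or the span trend removed. Cholesterol synthesis had 8 of 20 lower and 2 higher, with Dhcr7 at -0.66 and Idi1 at 0.97, and 11 lower without replicate 1 at 1 week. Fatty acid genes had 8 of 32 lower and 2 higher; the elongase gene Elovl5 (-0.83) and the desaturase gene Fads2 (-0.69) fell, and Cd36 (0.64), a fatty acid transporter, and Pdk4 (0.69) rose. Cytosolic tRNA synthetase genes had 9 of 17 lower and 2 higher, with Cars1 at -0.52 and Eprs1 at 0.55.

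Matrix, fibroblast and smooth muscle lists had about as many members lower as not, above the 33.9% lower over all genes. Extracellular matrix had 18 of 34 genes lower and 2 higher, with a median of -0.33. Beside Mfap2 and Col1a1, the collagen genes Col6a2 (-0.96 ± 0.14) and Col5a1 (-0.85 ± 0.14) led the falls, and Postn and Dcn rose by 0.83 and 0.30. Of fibroblast markers 10 of 19 were lower and 2 higher. Ogn, a small proteoglycan of fibroblasts, read 10.66, 10.72, 10.49, 10.61 and 10.84 at 4 weeks and 9.45, 9.33, 9.32, 8.23 and 9.12 at 1 week, and rose by 1.57 ± 0.19 against the direction of the list. Fibroblast genes Fbln1 and Pdgfrb fell by 0.69 and 0.61. Smooth muscle markers had 8 of 17 lower and 1 higher, and without replicate 1 at 1 week, where Actg2 and the thin filament gene Cnn1 (9.04) were highest, 6 were lower. Des, a muscle intermediate filament, fell by 0.87 ± 0.23 and Cnn1 by 0.77 ± 0.23. The span trend removed, 4 smooth muscle genes were lower and 1 higher. Matrix proteases and inhibitors had 7 of 30 lower and 4 higher, the latter led by Mmp12, the macrophage elastase.

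Among epithelial lists, genes of injured or transitional epithelium had the largest share lower, and most markers of resting epithelium did not pass the test. Injured or transitional epithelium had 10 of 15 genes lower and 1 higher, with a median of -0.46. With the span trend removed 6 were lower. The list also fell over time in unexposed controls, with 11 lower, 2 higher and a median of -0.53 (all genes 38% lower and 35.2% higher there). Against controls at 1 week, 5 of its genes were above and 6 below at 0.15 mg/m3. Krt17 was followed by Krt5 (-0.86 ± 0.36), whose call was lost in 10 of the other fits, the tight junction gene Cldn4 (-0.67 ± 0.20) and the growth factor gene Areg (-0.65 ± 0.20). Goblet cell and mucus genes had 6 of 14 lower and 1 higher, against 33.9% and 13.9% of all genes. Foxa3, a factor of mucous differentiation, read 3.27, 3.11, 3.14, 3.55 and 3.16 at 4 weeks and 3.59, 4.22, 4.12, 4.31 and 4.12 at 1 week, near the low end of the scale, with a fall of 0.83 ± 0.13. Spdef, another factor of goblet cells, fell by 0.81 ± 0.17, the airway protein gene Bpifb1 by 0.77 ± 0.21, and the anion exchanger gene Slc26a4 rose by 0.93 ± 0.24. Club cell genes had 4 of 9 lower, led by the cytochrome gene Cyp2f4 (-0.58 ± 0.11). Alveolar type 2 markers had 1 of 16 higher and 2 lower. That 1 was Lamp3, a lamellar body protein, at 11.92, 11.78, 12.03, 11.92 and 11.79 at 4 weeks and 10.97, 10.95, 11.17, 10.49 and 11.04 at 1 week, a rise of 0.97 ± 0.16; Sftpb and Muc1 were lower by small amounts. Type 1 markers had 4 of 13 lower, among them Ager (-0.36 ± 0.13), a call lost in 4 of the other fits, and Akap5 at 1.13. Ciliated cell markers had 2 higher and 2 lower of 12, with the motile cilium gene Ccdc39 at 1.35 and Tekt2 at -0.47.

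Interferon-induced genes rose in part, with wide spread between the 4-week animals. Of 32 measured, 10 were higher and 2 lower, with a median of 0.20 (all genes 13.9% higher, 33.9% lower and -0.13). Cxcl11, a chemokine that attracts T cells, read 4.83, 6.72, 6.41, 4.29 and 5.53 at 4 weeks and 4.11, 3.83, 3.90, 4.26 and 3.94 at 1 week. Replicates 2 and 3 at 4 weeks were high and replicate 4 lay next to the 1-week arrays, and the rise was 1.55 ± 0.30. Cxcl10, its close relative, showed the same order, with 5.20, 6.72, 6.69, 4.36 and 5.20 at 4 weeks against 4.06 to 4.49 at 1 week, a rise of 1.41 ± 0.29 with overlap. Ifit2, an inhibitor of translation of foreign RNA, was more even, at 8.40, 8.73, 8.86, 8.14 and 8.52 against 7.07, 7.10, 7.32, 6.56 and 6.97, and rose by 1.53 ± 0.23. Herc6, a ligase of the ISG15 system, rose by 1.09 ± 0.21. The mean level of the list was 0.72 in the highest and -0.17 in the lowest 4-week array, against -0.10 to 0.06 at 1 week. Leaving out 1 array at a time gave 8 to 13 members higher.

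Alveolar macrophage markers rose in small number, those of recruited macrophages moved both ways, and those of lymphocytes mostly did not pass the test. The shares over all genes were 13.9% higher and 33.9% lower. Alveolar macrophage markers had 4 of 11 higher and 0 lower, led by the mannose receptor gene Mrc1, at 9.67, 9.81, 9.71, 9.53 and 9.65 at 4 weeks and 9.18, 8.78, 8.92, 8.39 and 8.85 at 1 week (0.85 ± 0.16). Markers of monocytes and recruited macrophages had 4 of 23 higher, near the share over all genes, and 4 lower. Beside Lilrb4, Mmp12 read 9.05, 8.86, 8.94, 8.88 and 8.39 at 4 weeks and 7.14, 7.87, 8.13, 7.72 and 7.63 at 1 week, a rise of 1.13 ± 0.27. Cd163 and Arg1 rose by 0.62 and 0.59. The 4 members that were lower had smaller changes and are not named, and the lowest change in the list was -0.47. Neutrophil markers had 1 of 12 higher, Lcn2 (0.79 ± 0.25), with the calprotectin gene S100a9 at 0.47 ± 0.21 not passing the test. B cell and follicle genes had 5 of 15 lower, near the share over all genes, and 1 higher. Cd79b, a chain of the B cell receptor, read 5.13, 5.53, 5.14, 6.65 and 5.35 at 4 weeks and 6.44, 7.04, 7.09, 7.33 and 6.50 at 1 week, and fell by 1.32 ± 0.30 with replicate 4 at 4 weeks inside the 1-week range. Glycam1, a ligand on vessels of lymphoid tissue, spread from 3.86 to 9.23 at 4 weeks and fell by 1.74 ± 0.64, a call lost in 4 of the other fits. The chemokine gene Ccl19 of the same list fell by 1.09 ± 0.34. Without replicate 4 at 1 week 2 follicle genes were lower, and likewise 2 with the span trend removed. T cell markers had 2 higher and 1 lower of 19, with the interleukin 7 receptor gene Il7r at 1.57 ± 0.18. Its arrays read 7.14, 6.86, 6.81, 6.92 and 6.92 at 4 weeks and 5.52, 5.60, 5.51, 5.11 and 5.04 at 1 week, fully apart, while Cd3e, Cd3d, Cd3g and Cd2 were not called (-0.31, -0.24, -0.19 and -0.29).

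Signalling genes of inflammation moved in both directions, in counts near or below the shares over all genes (33.9% lower, 13.9% higher). Ptgs2, the inducible cyclooxygenase, read 7.20, 6.84, 6.90, 7.18 and 7.25 at 4 weeks and 4.97, 6.41, 6.17, 5.58 and 5.50 at 1 week, a rise of 1.35 ± 0.25 with the groups apart. Pla2g10, a secreted phospholipase of airway epithelium, read 4.78, 4.47, 4.55, 4.41 and 4.25 at 4 weeks and 4.69, 6.87, 6.85, 6.14 and 6.21 at 1 week, and fell by 1.66 ± 0.26. As for the mitotic genes, replicate 1 at 1 week lay inside the 4-week range of Pla2g10. Prostaglandin and leukotriene genes had 11 of 29 lower and 3 higher, and 7 lower without replicate 4 at 1 week. Cytokine and NF-kB signals had 7 of 38 lower and 4 higher, with Il1a at 1.00 and Il18 at 0.73, chemokines 5 of 31 lower and 4 higher, complement 4 of 23 lower and 2 higher (Cd55 1.27, Cfp -0.79), and acute phase genes 8 of 28 lower and 3 higher.

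Glutathione and NRF2 genes were lower more often than not, and metal genes moved both ways. Glutathione transferases and peroxidases had 16 of 25 lower and 0 higher, with a median of -0.31; Gstm2 was followed by Gpx7 (-0.69 ± 0.13), Gss (-0.65 ± 0.14), which makes glutathione, and Gstm7 (-0.60 ± 0.15). Gstm genes are near-identical in places, so their probe sets may share signal. Without replicate 4 at 1 week 11 were lower, and with the span trend removed 9 were lower and 2 higher. Targets of NRF2, the regulator of oxidant defence, had 13 of 24 lower and 2 higher, with Gsr, glutathione reductase, at -0.81 ± 0.15 and the cystine transporter gene Slc7a11 at 0.58 ± 0.17. Metal binding and transport had 8 of 28 higher and 7 lower (all genes 13.9% higher and 33.9% lower). The copper pump gene Atp7a rose by 1.14 ± 0.15, the zinc and manganese importer gene Slc39a8 by 0.92 ± 0.22 and the copper carrier gene Cp by 0.75 ± 0.10. The metallothionein Mt2A, named after its values were seen, fell by 0.68 ± 0.17, and Mt1 was not called (-0.13 ± 0.13). Foreign-compound metabolism had 7 of 25 lower and 1 higher, led by the airway cytochrome gene Cyp2a3 (-0.61 ± 0.18).

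Other lists are given by their counts, to be read against 13.9% higher and 33.9% lower over all genes. Unfolded protein and integrated stress genes had 13 of 30 lower and 4 higher, and 4 lower and 7 higher with the span trend removed; the endoplasmic reticulum chaperone Hsp90b1 rose by 0.62 and Hyou1 fell by 0.53. Heat shock genes had 7 of 20 lower and 5 higher, with Fkbp4 at -0.87 and Chordc1 at 0.73. Hypoxia targets had 8 of 31 lower and 5 higher, with Hif1a at 0.62. Clock genes had 8 of 24 lower and 2 higher (Nr1d2 0.87, Dbp -0.56), retinoid genes 7 of 21 lower and 3 higher (Lrat 0.96, Rara -0.63), growth factors 12 of 44 lower and 7 higher (Bmp5 1.26, Igf1 0.65), and immediate early genes 7 of 32 lower and 1 higher, Klf6 (0.71). With the median deviation of arrays set to 0 the immediate early count was 4 higher and 4 lower. Clotting genes had 5 of 25 higher and 1 lower (F5 1.05), lysosome and lipid genes 7 of 30 higher and 5 lower (Abca1 1.28 ± 0.18), glucocorticoid-responsive genes 6 of 26 higher and 4 lower (Nr3c1 0.83), and airway transport 5 of 21 lower and 4 higher (Aqp4 1.09, Cftr 0.96, Scnn1b -0.75). Heart muscle genes had 3 of 20 higher, led by the calcium channel gene Ryr2 (1.38 ± 0.40), and 1 higher without replicate 4 at 1 week. Endothelial genes had 4 of 23 lower and 1 higher, antigen presentation 6 of 16 lower and 1 higher (2 lower without replicate 4 at 1 week), mast cell and granulocyte genes 5 of 14 lower and 2 higher, and cytotoxic cell genes 3 of 14 lower and 2 higher. Red blood cell genes had 3 of 9 lower and 1 higher, plasma cell and nerve genes 3 of 8 lower each, mesothelial genes 2 of 7 lower, adipocyte genes 1 of 16 higher, and of 14 skeletal muscle genes 0 were called.

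Several of these smaller counts turned on 1 array or on scaling. Without replicate 4 at 1 week, 4 growth factor genes and 3 clotting genes were higher and 5 clock genes lower. Without replicate 5 at 1 week 3 of the protease and inhibitor genes were lower, and without replicate 1 at 1 week 3 of the lysosome genes. With the gene span trend removed, more members were higher than lower among cytokine and NF-kB signals (9 and 3), acute phase genes (6 and 4), proteases and inhibitors (7 and 4) and immediate early genes (6 and 1). The balance turned the same way for heat shock genes (6 and 4), chemokines (5 and 3), complement (4 and 3), airway transport (4 and 2), type 2 cell markers (4 and 0), type 1 cell markers (1 and 0) and cytotoxic cell genes (2 and 0). In antigen presentation 1 gene was higher and 1 lower, with that trend removed and with the median deviation set to 0.

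**Figure D4:**
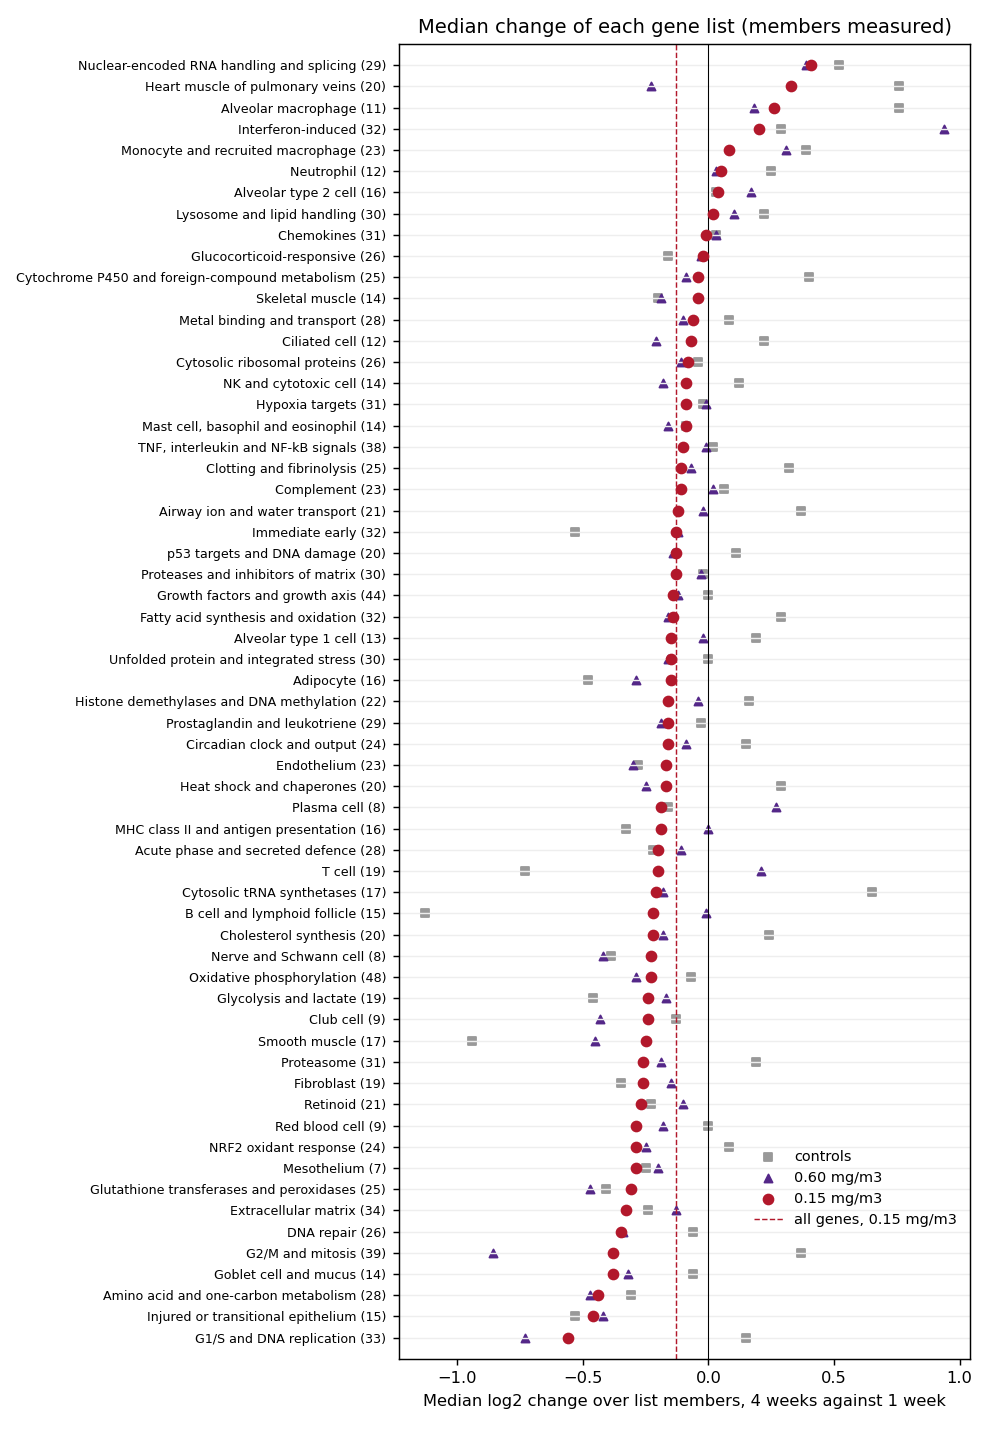
Median log2 change from 1 to 4 weeks over the measured members of each of 61 gene lists (number of members in brackets), for 0.15 mg/m3 (red circles), 0.60 mg/m3 (purple triangles) and controls (grey squares); the dashed red line is the median over all genes at 0.15 mg/m3 (-0.13). G1/S and replication genes lie lowest at 0.15 mg/m3 (-0.56) and RNA handling highest (0.41), and interferon-induced genes lie further right at 0.60 mg/m3 (0.94) than at 0.15 mg/m3 (0.20).

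The change over time at 0.15 mg/m3 was tested against that at 0.60 mg/m3, which shares no array with it. At 0.60 mg/m3, 7132 genes (53.1%) were called between the times, 16.3% higher and 36.7% lower. Of the calls at 0.15 mg/m3, 82.5% were called the same way at 0.60 mg/m3, and these were 74.4% of the calls there; 10 genes were called in opposite directions. Across genes the changes had a Pearson r of 0.89. The test of the difference called 31 genes (0.231%), of which 9 (0.067%) had the more positive change at 0.15 mg/m3 and 22 (0.164%) the more negative. The count depended on the fit: 96 with the 20 compared arrays alone in the model, 592 with array weights and 19 after quantile normalization. Without replicate 3 of the 4-week group at 0.60 mg/m3 17 genes were called.

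The 5 largest positive differences were in Prodh2, Akr1c3, Cxcr1, Cd200r1l and Slc39a2. Prodh2, a proline and hydroxyproline dehydrogenase, read 7.61, 7.79, 7.95, 7.90 and 7.52 at 4 weeks and 7.68, 7.13, 7.44, 7.35 and 7.56 at 1 week at 0.15 mg/m3, where it was not called (0.32 ± 0.22). At 0.60 mg/m3 it went from 7.62 ± 0.34 (SD) to 5.62 ± 0.23, and the difference between the changes was 2.33 (adjusted p = 3.12e-05 in limma). Akr1c3, a steroid and prostaglandin reductase, rose at 0.15 mg/m3, from 4.19, 3.44, 3.64, 3.78 and 3.76 at 1 week to 4.85, 5.47, 5.55, 5.65 and 4.62 at 4 weeks (1.47 ± 0.20). It changed by -0.31 at 0.60 mg/m3, a difference of 1.78. Cd200r1l, a receptor of the CD200 receptor family, rose by 0.95 ± 0.17 at 0.15 mg/m3 and changed by -0.75 at 0.60 mg/m3. The chemokine receptor gene Cxcr1 (0.35 against -1.40) and the zinc importer gene Slc39a2 (-0.13 against -1.79) were not called at 0.15 mg/m3. Tdh, chosen here after its values were seen, differed by 1.42.

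The 5 largest negative differences were in Ccl2, Lilrb4, Stra6l, Usp18 and Mmp7. Ccl2, the main chemokine for monocytes, read 7.07, 8.25, 8.08, 7.18 and 7.52 at 4 weeks and 7.32, 7.41, 8.04, 7.32 and 7.67 at 1 week at 0.15 mg/m3, with full overlap and a change of 0.07 ± 0.23. At 0.60 mg/m3 it went from 7.69 ± 0.38 (SD) to 9.31 ± 0.32, and the difference was -1.55 (adjusted p = 0.0137 in limma). Lilrb4 rose at both, by 1.90 at 0.15 mg/m3 and 3.41 at 0.60 mg/m3. Usp18, which removes ISG15 and dampens interferon signalling, changed by 0.35 against 1.65, and the matrix protease gene Mmp7 by 0.50 against 1.77. Stra6l, related to the retinol transporter Stra6, changed by 0.27 against 1.59. In the interferon list 27 of 32 genes were higher over time at 0.60 mg/m3 against 10 at 0.15 mg/m3, with medians of 0.94 and 0.20, but in the test of the difference only 1 member was called. Mitotic genes had medians of -0.86 at 0.60 and -0.38 at 0.15 mg/m3, with 24 and 20 lower, and 0 members differed by test.

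**Figure D5:**
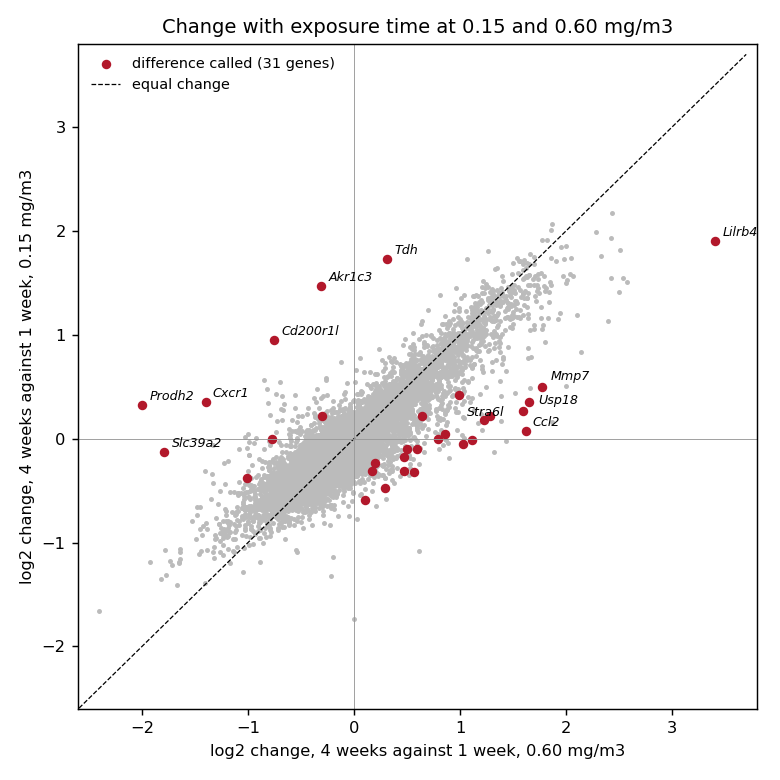
log2 change from 1 to 4 weeks of each of 13438 genes at 0.60 mg/m3 (horizontal) and 0.15 mg/m3 (vertical); the dashed line marks equal changes, and red points are the 31 genes whose changes differed in limma, with names for the largest differences and Tdh. Lilrb4 lies far right (3.41) and Prodh2 far left (-2.00), and most genes lie along the line.

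In unexposed controls more genes were called over time, some in the opposite direction. Between 1 and 4 weeks 9837 genes (73.2%) were called in controls, 35.2% higher and 38% lower. The calls at 0.15 mg/m3 were called the same way in controls for 74.6% (48.8% of the control calls), 625 genes were opposite, and r across genes was 0.56. The difference was called for 7567 genes (56.3%), 3641 (27.1%) more positive and 3926 (29.2%) more negative at 0.15 mg/m3. On the first component of the 50 arrays the 1-week controls ran from -75.2 to -43.6. Only their replicate 3 (-75.2) lay in the range of the 1-week arrays at 0.04 mg/m3 (-84.9 to -62.8), and the others lay above it. Those others lay in the range of the 1-week arrays at 0.08 mg/m3 (-64.7 to 5.46). All 1-week controls lay below all 1-week arrays at 0.15 mg/m3 (-3.01 to 14). The part of these positions in the difference was not tested. Time changes at 0.08 and 0.04 mg/m3 had r of 0.74 and 0.55 with that at 0.15 mg/m3, with 60.4% of genes called (24.6% higher, 35.8% lower) and 80.2% called (35.9% higher, 44.3% lower).

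The largest differences from controls came mainly from changes in the controls. Ptges, which makes prostaglandin E2, was not called at 0.15 mg/m3 (0.16 ± 0.23) and changed by -2.53 in controls, a difference of 2.70. Hars1, a tRNA synthetase, changed by -0.27 ± 0.28 at 0.15 mg/m3 and by 2.61 in controls, a difference of -2.88. The retinol transporter gene Stra6 (-0.43 against -3.02), Ccl19 (-1.09 against -3.53), the granzyme gene Gzma (-0.10 against 2.12) and Ap2b1 (-0.68 against 1.48) likewise moved further in controls. The other 4 were called at 0.15 mg/m3 and had the opposite sign in controls. Zfp654 rose by 1.59 at 0.15 mg/m3 and changed by -0.91 in controls, and Aspn, a matrix proteoglycan, rose by 1.73 and changed by -0.53. Rrm2 fell by 0.89 and changed by 1.35, and the mitotic motor gene Kif20a fell by 0.93 and changed by 1.17. Rrm2, the subunit of ribonucleotide reductase that limits DNA synthesis, read 8.09, 8.46, 8.37, 8.12 and 8.17 at 4 weeks and 7.94, 9.57, 9.47, 9.25 and 9.44 at 1 week, with replicate 1 at 1 week the lowest of all 10. Of mitotic genes 19 of 39 were higher over time in controls and 5 lower, and 23 had a more negative change at 0.15 mg/m3 against 2 more positive.

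Against the controls of the same time, 0.15 mg/m3 differed in 9015 genes (67.1%; 33.6% above, 33.4% below) at 1 week and in 428 (3.18%; 1.76% above, 1.42% below) at 4 weeks; both comparisons use the same exposed arrays as the contrast over time. Mitotic genes were above controls in 34 of 39 at 1 week (median 1.35) and in 26 of 39 at 4 weeks (median 0.82), with 0 below at either time. Replication genes were above controls in 27 of 33 at 1 week and in 3 at 4 weeks, with 2 below. Cholesterol synthesis genes were above in 13 of 20 at 1 week and 11 at 4 weeks. In matrix, oxidative phosphorylation and proteasome genes 0 members differed from controls at 4 weeks in either direction.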

How the data were processed

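Intensities of the 50 arrays were deposited by the authors as log2 values from RMA, with Partek also named, per the submitters' processing notes; the sources used here do not give versions or say which arrays were normalized together. Of 31042 probe sets, 19063 had 1 gene symbol in the platform's gene table, 572 had several and 11407 none. A linear model with 10 group means over all 50 arrays was fitted to these probe sets in limma 3.58.1 (R 4.3.3), with empirical Bayes variances and Benjamini-Hochberg adjustment over all of them; calls were made below an adjusted p of 0.05. Each gene was represented by its probe set with the highest mean over the 50 arrays. Errors of changes are standard errors from the fit. The number of arrays limits the precision: on simulated data for the 4 weeks against 1 week contrast at 0.15 mg/m3 (19063 probe sets), 74 of 100 changes of 0.5 log2 units and 98 of 100 of 1 unit were called, with 9 of 18863 unchanged probe sets. Only 200 probe sets were changed there, with noise drawn independently for each value. In the data 45.2% of probe sets were called and single arrays stood apart, so these rates need not hold for them.

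Genes named are the 15 largest rises and 15 largest falls without overlap of the arrays, the 5 largest differences in each direction between time changes, and, from each list, at most 4 called members by size of change (1 or 2 uncalled members where fewer were called). Tissue markers, remaining members where 5 or fewer moved one way, and genes stated to be so were named after their values were seen. Members and lists were chosen with earlier results of these data known. Alternatives were the compared groups alone, array weights, an intensity trend, median centring, quantile normalization, the dimmest probe sets left out, 1 probe set per gene, a replicate block and leaving out each array. Setting the median deviation of each array to 0 and removing its trend on gene span were chosen after seeing the data. Gene spans and upstream windows came from RefSeq tables of GRCr8.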

Additional observations from a re-analysis of the deposited data

Results flagged for a closer look

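Single arrays lay outside the spread of the other 4 of their group for several of the genes with the largest changes. At 4 weeks these were Arhgap5 in replicate 5 (9.33, others 8.9 to 9.01), Timp1 in replicate 5 (8.92, others 9.11 to 9.16) and Lsm2 in replicate 1 (6.43, others 6.76 to 6.89). At 1 week they were all in replicate 1: Steap1 (5.90, others 6.77 to 7.01), Tmem54 (8.08, others 8.69 to 8.73), Lsm2 (7.39, others 7.81 to 7.92), Rad54l (4.64, others 5.53 to 5.90) and Cdt1 (6.91, others 7.45 to 7.59). These are 8 of 62 groups of 5 arrays examined, and chance gives about 1 in 20 groups.

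The change from 1 to 4 weeks at 0.15 mg/m3 differed from that in controls for 7567 genes in limma. The largest differences were in Ptges (2.70), Stra6 (2.59), Zfp654 (2.50), Ccl19 (2.44), Aspn (2.26), Hars1 (-2.88), Rrm2 (-2.24), Gzma (-2.22), Ap2b1 (-2.16) and Kif20a (-2.10). It differed from the change at 0.60 mg/m3 for 31 genes, with the largest differences in Prodh2 (2.33), Akr1c3 (1.78), Cxcr1 (1.75), Cd200r1l (1.69), Slc39a2 (1.66), Ccl2 (-1.55), Lilrb4 (-1.52), Stra6l (-1.32), Usp18 (-1.30) and Mmp7 (-1.27).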

How the results depend on the processing

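The count of 6433 genes called between 1 and 4 weeks at 0.15 mg/m3 ranged from 5648 (median deviation of each array set to 0) to 8066 (array weights) over the other settings, and from 5408 (without replicate 4 at 1 week) to 6241 (without replicate 1 at 1 week) with 1 array left out. The count against controls (7567) ranged from 7451 to 8564 over the settings, and from 7180 to 7638 with 1 array left out. The count against 0.60 mg/m3 (31) was 96 with the compared groups alone in the model, 592 with array weights and 19 after quantile normalization, and 17 (without replicate 3 at 0.60 mg/m3, 4 weeks) to 44 (without replicate 3 at 0.15 mg/m3, 4 weeks) with 1 array left out; the cause was not tested. Of its calls 29.0% were more positive at 0.15 mg/m3, and 60.9% with arrays centred on their median, 42.1% after quantile normalization and 46.1% with array weights. Of 231 named genes, Muc1 and Tppp3 turned sign with the gene span trend removed, both to 0 after rounding, and 31 more were no longer called. Leaving out 1 array at a time kept the side of the threshold in 2188 refits of these genes and lost the call in 122.

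Replicate numbers are shared by the groups, but the same-number correlations of deviations ran from -0.18 to 0.17, and 1 of 5 arrays correlated best with its own number. With the number as a replicate block 6367 genes were called, 6325 of them the same genes in the same direction as without it; 7539 were called against controls and 35 against 0.60 mg/m3.

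Low-intensity genes such as Foxa3 leave little room for a measured fall, and the number of animals limits small changes.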
